A study of Mus musculus with 5 samples.

Results

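Single cells sorted from mouse brain carried UMIs of all 9 transcription factor genes chosen here: Sall1, Mef2a, Mef2c, Irf8, Spi1, Maf, Runx1, Cebpb and Zeb2. They were chosen by symbol as regulators of microglia and other myeloid cells, with earlier results of these data known. They are 9 of the 52542 gene rows in the tables and of the 16856 genes with at least 1 UMI in a kept cell. A UMI is a molecular barcode that marks 1 captured RNA molecule. The cells came from DM-hTAU mice, which carry a human tau gene with a pair of disease mutations under the natural tau promoter, and every library is labelled as brain, age 9 month, sorted as CD45+ CD11b+ and treated with aPDL1, an antibody to the checkpoint ligand PD-L1. All the libraries therefore share genotype, age, sort and treatment. The study's methods give the sort as high CD45 and high CD11b, set to isolate monocyte-derived macrophages. The paper names the microglia among these cells as activated, and also as homeostatic or activated. The microglia below may therefore not stand for all brain microglia. The study also sorted cells of mice given the control antibody IgG2b, but no well carries a treatment of its own in the labels used here, so no treated and control cells were compared.

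The extraction notes attached to the samples speak of thymus and small intestine, while the tissue label and the study's methods give brain. P2ry12 and Tmem119, defining genes of brain microglia, stood at 27.3 and 14.8 UMIs per 10000 in the microglia described below, but both were used to gate them. In all other kept cells they stood at 3.50 and 2.07. Markers of neurons, astrocytes and mast cells were at or near 0 in every class. The B cell list stood at 1.36 per 10000 in Cd209a cells to 3.14 in monocytes, with 1 or 2 of its 4 markers detected in each class, and the oligodendrocyte list reached 2.32 in monocytes, and their part in the results was not tested. The list for conventional dendritic cells, Xcr1, Clec9a, Ccr7 and Fscn1, stood at 2.75 per 10000 in microglia and 0.419 in the Cd209a cells. In the Cd209a cells 1 of its 4 markers was detected. So short a list does not settle whether Cd209a cells are dendritic cells, and its part in the results was not tested. The 5 libraries held 128201 to 549824 UMIs each, and 825 of 1900 wells with a cell kept 500 or more UMIs, 68, 87, 285, 71 and 314 cells in libraries 1 to 5. Libraries 3 and 5 were the deepest, with median depths of 1168 and 1268 UMIs per kept cell against 651 to 759 in the other three. No source ties a library to an animal, so the spread between libraries and every p-value below may be technical.

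These genes encode DNA-binding proteins that set and keep the identity of myeloid cells. PU.1, the product of Spi1, opens enhancers throughout the myeloid lineages and works with partners such as IRF8, C/EBPβ, RUNX1, the MEF2 factors and c-MAF. SALL1 is a zinc finger regulator known for marking microglia among tissue macrophages, and ZEB2 is a zinc finger repressor that binds E-boxes and helps to hold macrophage and monocyte programmes in place. Microglia arise from yolk sac precursors and depend on PU.1 and IRF8, whereas monocytes and neutrophils come from bone marrow.

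The genes lie at Sall1 chr8:89027235-89044162, Maf chr8:115682942-115707794 and Irf8 chr8:120736358-120756694. On chromosome 2 lie Zeb2 chr2:44983632-45117395, Spi1 chr2:91082390-91115756 and Cebpb chr2:167688915-167690418. The others are Mef2a chr7:67231163-67372858, Mef2c chr13:83504034-83667080 and Runx1 chr16:92601466-92826149, all in GENCODE vM21 on GRCm38. Cebpb is overlapped by Tmem189 on the opposite strand, which had 54 UMIs in the kept cells beside 193 for Cebpb. No source used here says whether counting used the strand, so reads of overlapping genes may not be told apart. The other overlapping annotated genes had at most 10 UMIs each, including Zeb2os, the antisense gene of Zeb2, at 0.

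RefSeq promoter sequences of GRCm38.p6 matched 7 of the 9 genes, all but Spi1 and Maf. Those of Sall1, Mef2a and Runx1 are printed because the results turn on Sall1, and because Mef2a and Runx1 hold words of their own protein families. Each runs 5′ to 3′ on the strand of its gene from 250 bases before to 50 after the most upstream listed start, at chr8:89044113-89044412 for Sall1, chr7:67372809-67373108 for Mef2a and chr16:92826025-92826324 for Runx1, each on the minus strand. Capitals mark matches on either strand to the words searched, which were GAGGAA for PU.1, CTANNNNTAG for MEF2, TTGCNNAA for C/EBP, GAAANNGAAA for IRF, TGTGGT for RUNX, CAGGTG for ZEB and TGCTGA for MAF.
Sall1: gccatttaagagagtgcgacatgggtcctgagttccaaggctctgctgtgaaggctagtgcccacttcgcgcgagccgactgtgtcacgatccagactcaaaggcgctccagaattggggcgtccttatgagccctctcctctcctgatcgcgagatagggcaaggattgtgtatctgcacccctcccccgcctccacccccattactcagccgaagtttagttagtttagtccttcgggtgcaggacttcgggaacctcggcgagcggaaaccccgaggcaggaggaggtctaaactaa
Mef2a: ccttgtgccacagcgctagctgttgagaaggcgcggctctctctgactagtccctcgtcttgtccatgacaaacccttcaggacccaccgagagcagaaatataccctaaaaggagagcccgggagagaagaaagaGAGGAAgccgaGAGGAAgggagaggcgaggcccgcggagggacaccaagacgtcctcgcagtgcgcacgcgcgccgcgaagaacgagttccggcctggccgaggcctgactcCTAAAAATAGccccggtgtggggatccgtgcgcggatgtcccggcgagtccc
Runx1: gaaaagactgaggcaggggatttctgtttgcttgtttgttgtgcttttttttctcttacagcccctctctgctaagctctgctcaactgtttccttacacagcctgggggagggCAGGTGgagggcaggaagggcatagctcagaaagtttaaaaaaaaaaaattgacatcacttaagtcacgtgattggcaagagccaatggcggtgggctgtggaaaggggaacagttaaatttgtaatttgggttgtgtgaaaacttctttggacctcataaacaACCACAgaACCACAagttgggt

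The Mef2a window held the MEF2 word CTAAAAATAG across its start, at base -2, a word class found in 3.69% of the 32851 promoters of the same length. It also held GAGGAA at bases -114 and -103, a word in 28.3% of promoters. The Runx1 window held ACCACA, the reverse complement of TGTGGT, at bases 29 and 37 after its start, and a word of this kind was in 16.8% of promoters. It held CAGGTG at base -136, beside 20.2% of all promoters. Mef2c held 1 GAGGAA at base -122 and Zeb2 held 1 GAGGAA at base -118 and TTGCAAAA at base -221, a C/EBP word class in 10.8% of promoters. No searched word was in the windows of Sall1, Irf8 and Cebpb, and the IRF word (3.44% of promoters) and the MAF word (19.5%) were in none of the 7. These matches are letters in a window and no binding was measured. The libraries counted the 3′ ends of transcripts, which do not show which promoter was used.

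Cells were placed in classes by their share of marker UMIs, none of them from the 9 genes. This gave 308 microglia (P2ry12, Tmem119, Siglech and others), 100 macrophages (Mrc1, Pf4, Cbr2, Ms4a7), 44 monocytes (Ly6c2, Ccr2, Plac8), 42 cells with Cd209a, a lectin gene of dendritic and monocyte-derived cells, and 29 neutrophils (S100a8, S100a9, Retnlg). The other 302 kept cells met no gate, or met a gate without 1.5 times the share over threshold of every other class. Counts were summed by library and class where 5 or more cells were present, leaving 5 libraries for microglia, 4 for monocytes, 3 each for Cd209a cells and neutrophils and 2, libraries 3 and 5, for macrophages. Levels are UMIs of a gene per 10000 UMIs of the class. Median depths were 1009 UMIs per cell in microglia, 974 in macrophages, 1304 in monocytes, 2158 in Cd209a cells and 686 in neutrophils. The macrophages also carried microglia markers at 33.9 per 10000, against 150 in microglia and 13.5 in monocytes, and the part of such UMIs in the macrophage levels was not tested.

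Sall1 had its highest levels in microglia. It stood at 3.34, 3.93, 2.63, 2.35 and 4.22 per 10000 in the microglia of libraries 1 to 5, a mean of 3.30 ± 0.807 (SD, n = 5). In macrophages it was 0 in library 3 and 0.911 in library 5. In monocytes it was 0 in libraries 1 and 2, 0.749 in library 3 and 0.201 in library 5. Every microglia library lay above the listed values of the other classes. The zeros of small sums do not show a separation, since 3 counts would be 6.95 and 6.49 per 10000 in the monocytes of libraries 1 and 2, 3.14 in the Cd209a cells of library 2 and 2.85, 10.2 and 3.89 in the neutrophils of libraries 2, 4 and 5. Cd209a cells had 2 UMIs, both in library 5, and neutrophils had 0 of 23862 UMIs, where 3 counts would be 1.26 per 10000. Over all gated cells Sall1 was 8.02-fold higher in microglia than in macrophages (95% counting interval 3.35 to 25.1, 135 against 5 UMIs). Against neutrophils it was 2.73-fold higher when a floor of 3 counts stands in for 0, with an exact 95% lower limit of 2.19. With 2 UMIs each in monocytes and Cd209a cells, the ratios were 12.6 (3.41 to 105) and 16.4 (4.45 to 137). These intervals cover counting error only. A Sall1 UMI was seen in 26.0% of microglia and 3.0% of macrophages, classes of similar depth, and in 13.03% and 1.41% after each cell was thinned to 500 UMIs.

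Maf, which encodes the basic leucine zipper factor c-MAF of tissue macrophages, was highest in macrophages. It reached 14.9 and 14.4 per 10000 in libraries 3 and 5, against 4.71 and 4.16 in the microglia of the same libraries. The other microglia libraries had 2.23, 4.65 and 4.31, so the macrophage libraries lay above all 5. In monocytes Maf was 0, 0, 0.749 and 1.41 in libraries 1, 2, 3 and 5, below every microglia library, although the monocyte sums of libraries 1 and 2 were so small that 3 counts would be 6.95 and 6.49 per 10000. Cd209a cells had 1 Maf UMI among 95354 and neutrophils had 0. The pooled level was 3.36-fold higher in macrophages than in microglia (2.70 to 4.19, 168 UMIs each). It was at least 3.40-fold higher in microglia than in neutrophils with the 3-count floor. At equal depth 39.1% of macrophages held a Maf UMI against 16.2% of microglia, 4.80% of monocytes and 0.197% of Cd209a cells, where the unthinned shares were 54.0%, 31.8%, 11.4% and 2.38%.

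**Figure D1:**
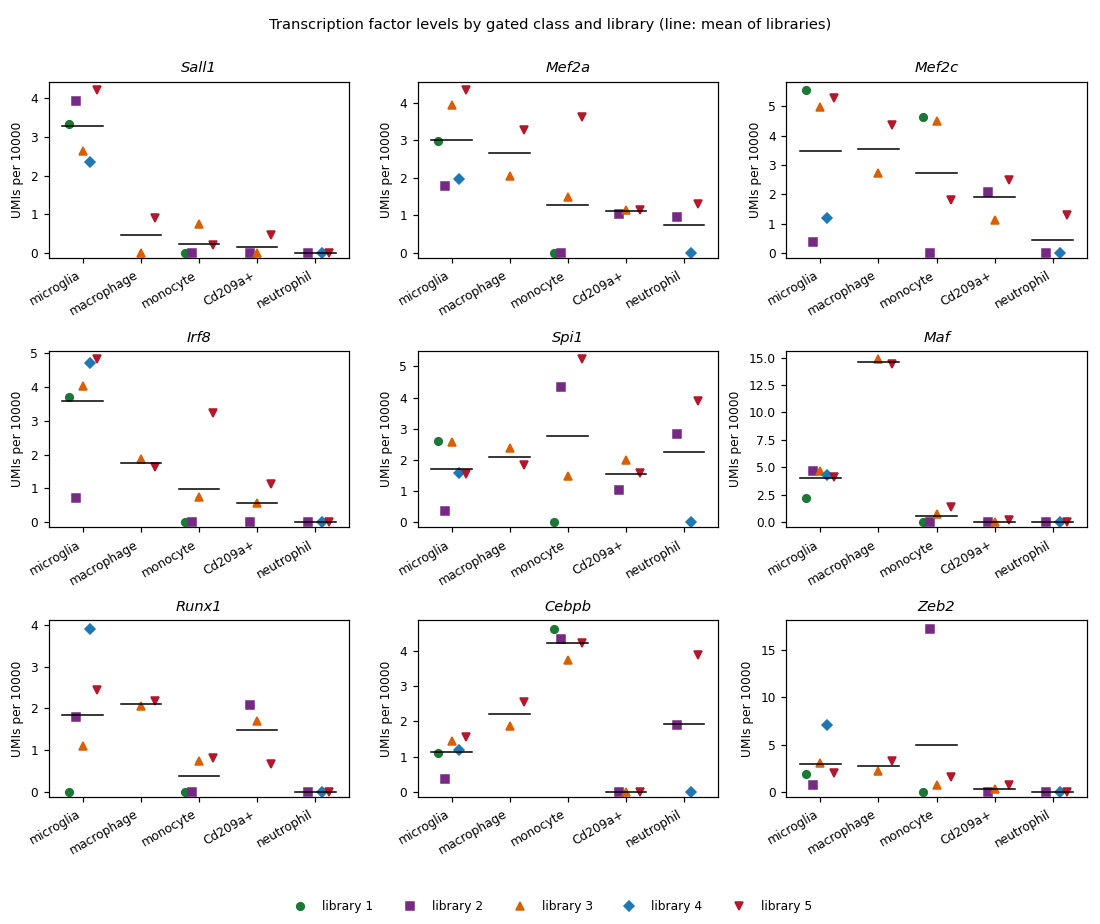
Each panel plots 1 gene as UMIs per 10000 (vertical axis) by gated class, with 1 point for each library that had 5 or more cells of the class and a line at the mean of the libraries. Sall1 lies above 2 in all 5 microglia libraries and below 1 elsewhere, with several zeros from small sums, and Maf lies above 14 in both macrophage libraries.

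Irf8, the interferon regulatory factor that pairs with PU.1, stood at 3.71, 0.715, 4.01, 4.70 and 4.82 per 10000 in the microglia of libraries 1 to 5. Library 2 was far below the other four, with 2 UMIs. Macrophages had 1.88 and 1.64 in libraries 3 and 5, and monocytes had 0, 0, 0.749 and 3.22. The ranges of microglia and macrophages overlapped through library 2, and in libraries 3 and 5 microglia were the higher. Cd209a cells had 0, 0.569 and 1.13 in libraries 2, 3 and 5. Neutrophils had 1 Irf8 UMI, in a library with only 3 such cells, so the ratio of microglia to neutrophils was 9.89 (1.75 to 393).

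Spi1, the gene of PU.1, did not separate any neighbouring classes. Microglia had 2.60, 0.358, 2.56, 1.57 and 1.55 per 10000, and macrophages had 2.39 and 1.82. Monocytes had 0, 4.33, 1.50 and 5.23 in libraries 1, 2, 3 and 5, and the values of Cd209a cells were 1.05, 1.99 and 1.58. The order of means ran from 2.76 ± 2.43 in monocytes (SD, n = 4) to 1.54 ± 0.474 in Cd209a cells (SD, n = 3). Neutrophils had 10 Spi1 UMIs over all 29 cells, 4.19 per 10000 (2.01 to 7.71), while Sall1, Maf, Runx1 and Zeb2 were at 0. Their libraries 2, 4 and 5 had 2.85, 0 and 3.89 per 10000, on 3, 0 and 3 UMIs. The other 4 UMIs came from library 3, which had only 3 neutrophils and lay outside the sums. The pooled monocyte level was 2.15-fold that of microglia (1.36 to 3.32), but microglia were higher in 2 of the 4 libraries with both classes.

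Runx1, a runt-domain factor of blood formation, was 0, 1.79, 1.11, 3.92 and 2.44 per 10000 in microglia. For the 0 in library 1, 3 counts would be 1.11. Macrophages had 2.05 and 2.19, Cd209a cells 2.09, 1.71 and 0.678, and monocytes 0, 0, 0.749 and 0.805. No neighbouring pair of classes was separated. Neutrophils had 0 UMIs, and microglia were at least 1.46-fold higher.

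The MEF2 genes encode MADS-box factors, and MEF2C is known to restrain inflammatory responses of microglia. Mef2a was 2.97, 1.79, 3.94, 1.96 and 4.34 per 10000 in microglia and 2.05 and 3.28 in macrophages. It was 1.05, 1.14 and 1.13 in the Cd209a cells of libraries 2, 3 and 5, below all microglia libraries but on 1, 4 and 5 UMIs. Mef2c ranged more widely among the microglia libraries, from 0.358 in library 2 and 1.18 in library 4 to 5.57, 4.98 and 5.29 in libraries 1, 3 and 5. It was 2.73 and 4.37 in macrophages, 4.63, 0, 4.49 and 1.81 in monocytes and 2.09, 1.14 and 2.49 in Cd209a cells. Neighbouring classes overlapped for Mef2c, from a mean of 3.55 in macrophages to 0.432 in neutrophils.

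Cebpb encodes C/EBPβ, a basic leucine zipper factor of monocytes and inflammatory macrophages. Monocytes had 4.63, 4.33, 3.74 and 4.23 per 10000 in libraries 1, 2, 3 and 5, a mean of 4.23 ± 0.369 (SD, n = 4). Microglia had 1.11, 0.358, 1.45, 1.18 and 1.55 and macrophages 1.88 and 2.55. All 4 monocyte libraries lay above all libraries of microglia and macrophages, though libraries 1 and 2 rest on 2 UMIs each. The pooled ratio of monocytes to microglia was 2.99 (1.84 to 4.75). Cd209a cells had 0 Cebpb UMIs among 95354 in 42 cells, which allows up to 0.315 per 10000. Cebpb was thus at least 4.37-fold higher in microglia and at least 7.35-fold higher in macrophages than in Cd209a cells. A Cebpb UMI was found in 38.6% of monocytes and 11.7% of microglia, and in 18.0% and 5.48% at equal depth.

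Zeb2 was 1.86, 0.715, 3.05, 7.05 and 2.02 per 10000 in microglia and 2.22 and 3.28 in macrophages. In Cd209a cells it was 0, 0.284 and 0.678, below the listed values of both other classes by a thin margin. The 0 of library 2 shows no separation, since 3 counts there would be 3.14 per 10000. The 0.678 rests on 3 UMIs, and the lowest microglia value of 0.715 on 2 UMIs of 1 cell. Monocytes had 0, 17.3, 0.749 and 1.61. The value of 17.3 in library 2 came from 8 UMIs of 1 cell among 5. Neutrophils had 0, and microglia were at least 2.08-fold higher.

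**Figure D2:**
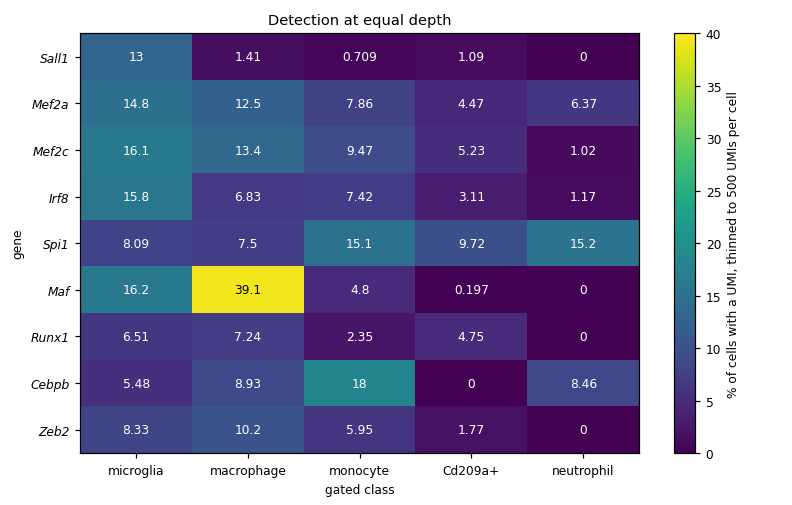
The map gives the percent of cells with at least 1 UMI of each gene (rows) in each gated class (columns) after every cell was thinned to 500 UMIs. Maf in macrophages, at 39.1%, is the highest share, and 4 of the 9 genes are at 0 in neutrophils.

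Differences between classes were tested with edgeR's quasi-likelihood test over all genes, blocked on library and adjusted after Benjamini and Hochberg. A gene is called at an adjusted p under 0.05. This test gives no SE, so each SE below is the absolute log2 fold change over the square root of the test's F, an approximation. All 9 genes passed the filter of 20 UMIs in total, and each comparison with microglia used the same microglia sums. The 9 were chosen with earlier results of these data known, so their counts beside the share of all genes are description only. Fold changes were shifted as a whole: the median log2 fold change of all 5207 genes tested was 0.245 for microglia against macrophages, 0.910 against monocytes, 0.890 against Cd209a cells and 0.612 for macrophages against Cd209a cells. The folds below are read against those medians.

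None of the 9 genes was called between microglia and macrophages, where 0.48% of all genes were called, 14 of those 25 being gate markers. Sall1 and Maf had the lowest p. Sall1 had a log2 fold change of 3.16 (SE 0.969, edgeR adjusted p = 0.144), higher in microglia in both libraries with both classes. Maf had -1.63 (SE 0.567, adjusted p = 0.319), higher in macrophages in both. Their unadjusted p were 0.00113 and 0.00404. Both were called when only sums of 10 or more cells were used, at adjusted p of 0.0142 and 0.000653, and with edgeR's own filter on low counts, at 0.0417 and 0.0130. The median of the 9 genes was 0.0411.

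Against monocytes, 2 of the 9 genes were called, both higher in microglia, where 3.65% of all genes were called. Sall1 had a log2 fold change of 4.23 (SE 1.02, edgeR adjusted p = 0.00251) and was higher in microglia in 4 of 4 libraries. Maf had 2.61 (SE 0.678, adjusted p = 0.00628), also in 4 of 4. Irf8, Mef2a and Mef2c had 1.75, 1.42 and 1.40 with adjusted p of 0.154 to 0.223, each higher in microglia in 4 of 4 libraries. For these genes, Sall1 and Maf, the monocytes of libraries 1 and 2 were at 0, except Mef2c in library 1 on 2 UMIs. There 3 counts would be 6.95 and 6.49 per 10000, above the microglia values, so libraries 1 and 2 show no direction. Cebpb went the other way at -0.99 (adjusted p = 0.455), lower in microglia in 4 of 4 libraries. The median of the 9 was 1.42 beside 0.910 for all genes. Without library 3 or without library 5 neither Sall1 nor Maf was called, with adjusted p of 0.240 to 0.451. The stricter gate also ended both calls, and leaving out library 2 ended that of Maf (edgeR adjusted p = 0.0501).

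Most of the factors were lower in Cd209a cells. Of the 9, 6 were called higher in microglia than in Cd209a cells and none lower, where 5.53% of all genes were called. Maf had a log2 fold change of 5.49 (SE 0.936, edgeR adjusted p = 7.02e-07) and Sall1 had 4.52 (SE 1.01, adjusted p = 0.000535). Irf8 had 2.99 (adjusted p = 0.00885), Zeb2 had 2.82 (adjusted p = 0.0229) and Mef2a had 2.33 (adjusted p = 0.0345). Cebpb was the sixth, called at an adjusted p of 0.00452 with 0 UMIs in Cd209a cells. All 6 were higher in microglia in 3 of 3 libraries. In the Cd209a cells of library 2, however, 3 counts would be 3.14 per 10000. The microglia there had Irf8 and Zeb2 at 0.715, Cebpb at 0.358 and Mef2a at 1.79. Library 2 therefore shows no direction for these genes. Mef2c, Runx1 and Spi1 had 1.59, 0.91 and 0.79 with adjusted p of 0.148 to 0.553. The median of the 9 was 2.82 as fitted and 2.33 with Cebpb set by the 3-count floor, beside 0.890 and 0.725 for all genes. Mef2a was called in 6 of 16 alternatives and Zeb2 in 8 of 16. Without library 3 none of the 6 was called, and without library 5 only Maf was.

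Macrophages against Cd209a cells gave 3 called genes, all higher in macrophages, where 2.73% of all genes were called. Maf had a log2 fold change of 7.12 (SE 0.915, edgeR adjusted p = 1.29e-11). Zeb2 had 3.19 (SE 0.920, adjusted p = 0.0256) and Cebpb was called at an adjusted p of 0.00269. All 3 were higher in macrophages in 2 of 2 libraries. Sall1 had 1.36 (adjusted p = 0.694) and was at 5 against 2 UMIs. Zeb2 was called in 5 of 16 alternatives. Without library 3 none was called, and without library 5 only Maf was.

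Against neutrophils, 4 of the 9 genes were called higher in microglia, namely Sall1, Irf8, Maf and Zeb2, where 6.11% of all genes were called. Each was at 0 in all 3 neutrophil sums, with adjusted p of 0.0100, 0.0113, 0.00218 and 0.00984. Floor ratios and lower limits for Sall1, Maf and Zeb2 are given above. The ratio given for Irf8 used the 1 UMI of library 3, which lay outside these sums. Fitted folds of genes at 0 are not given. These calls changed with the setting: 0 of the 9 were called with size factors of the DESeq2 kind in edgeR, with at least 10 cells per sum or without library 5, 1 was called without library 3, and DESeq2 called 7. The size factors of the DESeq2 kind also turned the balance of all called genes from 263 higher and 55 lower in microglia to 36 higher and 144 lower. Library 3, with 3 neutrophils, was not among those sums. The gene of PU.1 had a log2 fold change of -0.13 (SE 0.884, adjusted p = 0.927) in this comparison and Cebpb had -0.28 (SE 0.976, adjusted p = 0.852). The median of all genes there was 3.09 as fitted, with 2880 genes at 0 in neutrophils, and 0 with such genes set by the 3-count floor.

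The split of calls by direction also moved with those size factors in the other comparisons. It went from 12 higher and 13 lower in microglia to 22 and 16 against macrophages, from 159 and 31 to 113 and 44 against monocytes, and from 242 and 46 to 203 and 106 against Cd209a cells. For macrophages against Cd209a cells it went from 124 and 18 to 110 and 52. The called members kept their direction under every scaling.

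**Figure D3:**
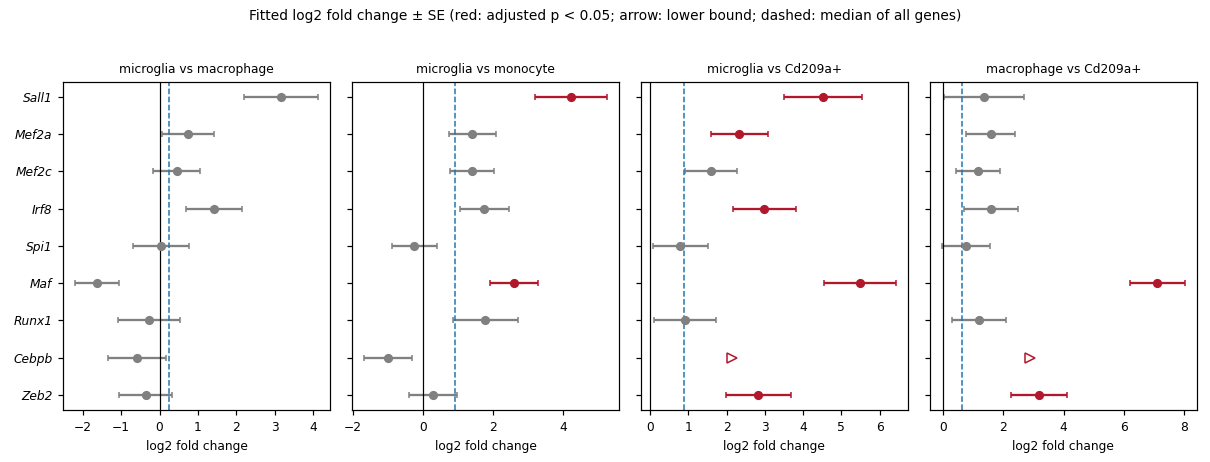
Points are edgeR log2 fold changes for the 9 genes in 4 comparisons, with an approximate SE derived from the test's F. They are red where the adjusted p was under 0.05, and the dashed line is the median of all genes tested. Arrows mark Cebpb against Cd209a cells, where the class was at 0 and the arrow is the lower bound of the ratio. Among the genes drawn as points, Sall1 and Maf lie farthest to the right of the dashed line in both comparisons of microglia with monocytes and with Cd209a cells.

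Relatives of the 9 factors and other myeloid factors were taken from lists. Of 39 listed relatives 20 were tested, and of 66 other factors 42. No relative was called between microglia and macrophages or between macrophages and Cd209a cells, where 0.48% and 2.73% of all genes were called. Cebpz, listed with the C/EBP genes by its name, was called higher in microglia than in monocytes at an adjusted p of 0.0206, with 53 UMIs against 0. Between these classes 3.65% of all genes were called. The medians of the relatives were 0.356, 1.28, 1.41 and 0.956 against macrophages, monocytes and Cd209a cells and for macrophages against Cd209a cells.

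Among the other factors, Id2 and Jun were called in both comparisons with Cd209a cells. Of the 42 tested, 2 were called for microglia and 5 for macrophages against these cells, beside 5.53% and 2.73% of all genes. Id2, an inhibitor of basic helix-loop-helix factors known from dendritic cells, was at 6.83 to 8.81 per 10000 in the 3 Cd209a libraries against 0 to 1.31 in microglia. Its log2 fold change was -2.88 (SE 0.635, edgeR adjusted p = 0.000395) for microglia against Cd209a cells and -3.86 (SE 0.933, adjusted p = 0.00327) for macrophages against them. Jun, an AP-1 subunit, was higher in microglia (2.22, SE 0.605, adjusted p = 0.00833) and in macrophages (2.62, SE 0.645, adjusted p = 0.00415). Cd209a cells were not tested against monocytes, where Id2 had a mean of 4.49 per 10000 and reached 16.2, and where Jun had 2.07 beside 1.34 in Cd209a cells. Fos, the partner of Jun, was higher in macrophages (1.92, SE 0.550, adjusted p = 0.0244), as was Klf2 (4.24, SE 1.25, adjusted p = 0.0319). Bhlhe40 was lower in macrophages at an adjusted p of 0.0481, with 0 against 18 UMIs. No factor on this list was called between microglia and macrophages or between microglia and monocytes, where 0.48% and 3.65% of all genes were called. Egr1, Junb and Jun, 3 of the 42, were called higher in microglia than in neutrophils, beside 6.11% of all genes. Neutrophils had 0 UMIs of Egr1 and Junb and 1 of Jun. The medians of the list were 0.105 against macrophages, 1.04 against monocytes, 1.29 against Cd209a cells and 1.19 for macrophages against Cd209a cells.

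Of 8 textbook targets of PU.1 and its partners, all were tested. None was called between microglia and macrophages, where 0.48% of all genes were called. Csf1r, the receptor for the growth factor that microglia need, had a log2 fold change of 2.90 against monocytes (SE 0.436, edgeR adjusted p = 1.01e-08) and 3.11 against Cd209a cells (SE 0.478, adjusted p = 2.31e-08). Ctss, a lysosomal protease, Itgam, the CD11b chain used in the sort, and Ly86, the partner of the receptor Cd180, were called higher in microglia in both comparisons, at 1.98, 2.46 and 1.80 against monocytes and 2.49, 2.16 and 2.00 against Cd209a cells. Fcgr1, a receptor for antibody, and Csf3r, the receptor for granulocyte colony-stimulating factor and a neutrophil gate marker, were called against Cd209a cells at 3.01 and 4.59. Cybb, a subunit of the phagocyte oxidase, had -0.59 and 0.87, and Csf2ra, a receptor for granulocyte-macrophage colony-stimulating factor, had -1.49 and -0.98, none of them called. Thus 4 of 8 targets were called higher in microglia than in monocytes and 6 of 8 than in Cd209a cells. There 3.65% and 5.53% of all genes were called. Spi1 had log2 fold changes of -0.24 and 0.79 in these comparisons. The targets held 83 to 3970 UMIs in the fit and Spi1 held 150, so their calls cannot be set side by side. Between macrophages and Cd209a cells 2 were called, Csf1r (2.53, adjusted p = 0.000254) and Fcgr1 (3.24, adjusted p = 0.00107), beside 2.73% of all genes. Against neutrophils 4 were called higher in microglia, namely Csf1r, Ctss, Fcgr1 and Ly86, beside 6.11% of all genes called. Without library 3 no gene of 3553 was called against Cd209a cells, in microglia or in macrophages, so every call against those cells, Id2 and Jun included, was lost. Without library 5, 28 of 2989 genes were called for microglia and 5 for macrophages against Cd209a cells. Against monocytes 18 and 42 genes were called without library 3 and without library 5. The median of the 8 was 0.576 against macrophages, 1.89 against monocytes, 2.33 against Cd209a cells and 1.55 for macrophages against Cd209a cells. The medians of all genes were 0.245, 0.910, 0.890 and 0.612 in the same order.

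The microglia were also split within each library at the median share of a list of 12 genes that mark activated microglia, Lpl, Spp1, Ccl3, Cst7 and Itgax among them. The cut lay between 28.8 and 64.1 list UMIs per 10000 in the 5 libraries, so the higher part is a range of scores and no separate cell type, and 68 of the 308 cells lay within 20 per 10000 of it. The 152 cells above had a median of 1054 UMIs and microglia markers at 124 per 10000, and the 156 below had 924 and 178. Both parts passed the same sort, so the cells below the cut are not shown to be resting. None of the 9 factors was called, where 0.269% of 3346 genes were called, and by unadjusted p Zeb2 was the only factor under 0.05.

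Zeb2 was 3.61, 1.33, 4.36, 11.4 and 1.75 per 10000 above the cut and 0, 0, 1.50, 3.02 and 2.31 below it in libraries 1 to 5. It was higher above the cut in 4 of 5 libraries. Its log2 fold change was 1.30 (SE 0.660, edgeR adjusted p = 0.997), with an unadjusted edgeR value of 0.0481. Spi1 went the other way in every library, at 1.44, 0, 1.79, 0 and 1.16 above and 3.82, 0.770, 3.46, 3.02 and 1.94 below. In library 2 the Spi1 value rests on 1 UMI and the Zeb2 value on 2 UMIs of 1 cell. With both parts together, Zeb2 rests on 5 UMIs of 2 cells in library 1 and 18 UMIs of 4 cells in library 4. Spi1 rests on 7 UMIs of 5 cells in library 1 and 4 UMIs of 2 cells in library 4. The log2 fold change of Spi1 was -1.33 (SE 0.796, adjusted p = 0.997). Sall1 was 3.61, 0, 2.18, 0.816 and 4.19 above and 3.05, 8.47, 3.16, 3.77 and 4.25 below, lower above the cut in 4 of 5 libraries with a log2 fold change of -0.88 (SE 0.546, adjusted p = 0.997). The other 6 factors had log2 fold changes between -0.51 for Mef2a and 0.08 for Maf, with SEs of 0.476 to 0.910, so differences of this size could not be shown at this depth.

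**Figure D4:**
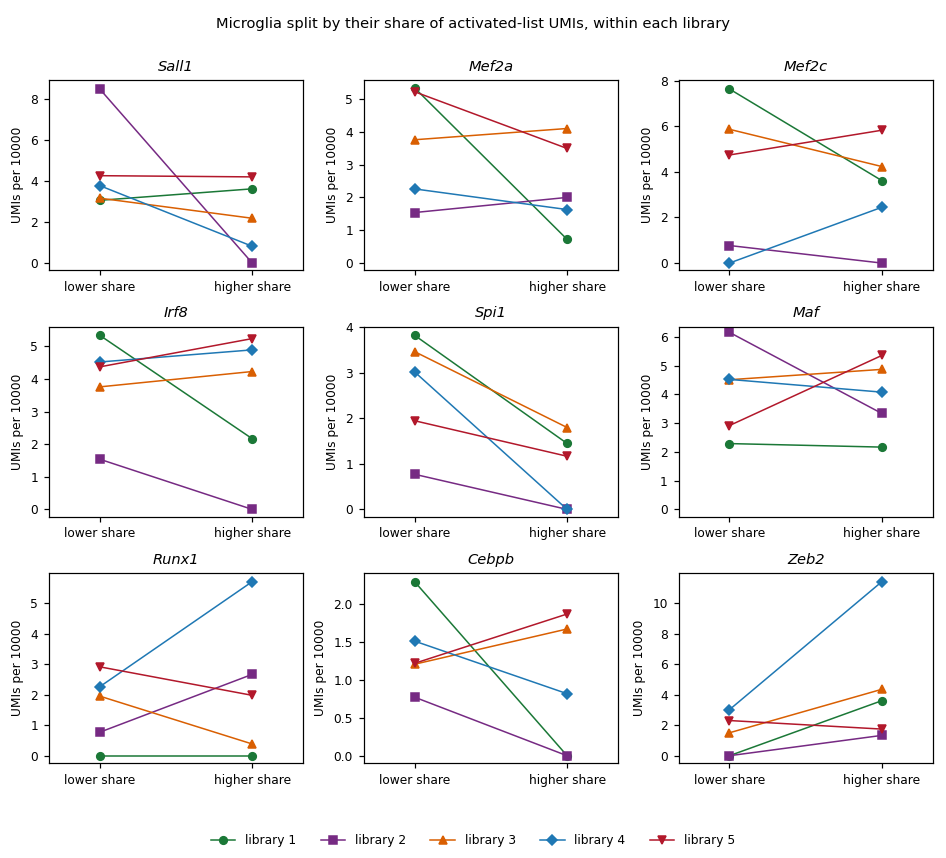
Each line joins the microglia of 1 library below (left) and above (right) the library's median share of activated-list UMIs, as UMIs per 10000 of each gene. Spi1 is lower on the right in all 5 libraries and Zeb2 higher in 4 of 5, and neither passed the adjusted test. Zeb2 was found in only 2, 1 and 4 microglia of libraries 1, 2 and 4, and Spi1 in only 5, 1 and 2.

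Across the 17 sums of library and class, Pearson correlations of log2(UMIs per 10000 + 1) described which genes followed each factor among 916 genes with 100 or more UMIs. The points share libraries, classes and depth, so no p is given. Sall1 was most like Adgrg1, Golm1 and Arhgap5 (r from 0.883 to 0.890), with Adgrg1 at 3.68 ± 1.08 per 10000 in microglia (SD, n = 5). Maf was most like Gas6, Ang and Hpgds (0.918 to 0.933), and Irf8 like Cd180, Zmiz1 and Zfhx3 (0.927 to 0.976). Cebpb followed Lst1, Lyz2 and Sat1 (0.638 to 0.805), and Spi1 followed Ywhaz, Pfdn5 and Cox8a (0.757 to 0.844). Mef2a was close to Cd53 and Pdia3 (0.863 and 0.894), Mef2c to Cd48, Nrp1 and Pea15a (0.758 to 0.827), Runx1 to Zfp36l2, Tlr9 and Ntpcr (0.880 to 0.920) and Zeb2 to Ifngr2, Cd300c2 and Slc25a5 (0.809 to 0.890). Among the 9 themselves the highest r was 0.838, between Irf8 and Mef2a, and the lowest was -0.304, between Runx1 and Cebpb.

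The 302 cells placed in no class held little Sall1 and the other 8 factors at levels within the range of the classes. They had Sall1 at 0.302 per 10000 (0.161 to 0.517), near the 0.428 of macrophages, and Maf at 3.67 (3.12 to 4.29). Irf8 stood at 2.63, Mef2a at 2.81, Mef2c at 2.42, Spi1 at 2.42, Zeb2 at 2.46, Cebpb at 1.77 and Runx1 at 1.53. Their microglia markers were at 24.5 per 10000. Markers of T or NK cells were at 1.05, with 4 of 5 detected, and the list for conventional dendritic cells at 2.18, with 4 of 4 detected. The part of such cells in these levels was not tested. The 20 wells without a cell held 320 UMIs in all, of which 1 was of a factor, Irf8.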

How the data were processed

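The authors sequenced MARS-seq libraries of sorted single cells, demultiplexed with bcl2fastq 2.15.0.4 per the labels, and deposited UMI counts per gene and well on mm10, which are whole numbers with no normalization. No source used here names the aligner. Wells with 1 cell and at least 500 UMIs outside the ERCC spike-ins were kept. A class needed 50 (microglia), 25 (macrophage), 25 (monocyte), 10 (Cd209a) or 300 (neutrophil) marker UMIs per 10000, 3 marker UMIs from 2 markers (for Cd209a cells 2 UMIs of Cd209a), and 1.5 times the share over threshold of every other class. No doublet caller was run. No cell barcode is shared between libraries. Counts were summed by library and class (5 or more cells) and fitted with edgeR 4.0.16 in R 4.3.3 (TMM, quasi-likelihood, library block, 20 or more UMIs in total), and the fit was tested on simulated data. The replicate numbers of the libraries enter as that block, since all classes of a library share that library. Detection shares were set to 500 UMIs per cell by hypergeometric expectation, so no cell was left out. Intervals are exact at 95%, Poisson for levels, binomial for shares and conditional binomial for ratios. All 9 genes are named, with the 3 genes most like each, the called genes of the relative and other-factor lists with the 3 largest changes each way, and all 8 targets; genes withheld from the text are not reported here. The members and lists were chosen with earlier results of these data known, and the gate thresholds after marker distributions and member levels under 2 gates were seen. Alternatives were the scaling, the tool (DESeq2 1.42.0), filters, depth and cell minimums, gates, the block and each library left out.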

Additional observations from a re-analysis of the deposited data

Results flagged for a closer look

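Among 18 groups of 4 or 5 libraries, 3 held a library whose gap to the others passed Dixon's 95% limit. Chance would give such a gap in about 1 in 20 groups, so 3 of 18 lies above that rate, and the cause was not tested. Irf8 in the microglia of library 2 stood at 0.715 per 10000, where the nearest library had 3.71, and it rests on 2 UMIs. Maf in the microglia of library 1 stood at 2.23 where the nearest had 4.16. Zeb2 in the monocytes of library 2 stood at 17.3 where the nearest had 1.61, and all 8 UMIs were in 1 cell.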

How the results depend on the processing

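All 15 called results of the 9 genes kept their direction in every alternative that was run, and none was called in all of them. The number of members called between microglia and macrophages went from 0 to 2 with edgeR's own filter and with at least 10 cells per sum, and to 1 with at least 1000 UMIs per cell. Against monocytes it went from 2 to 0 with the stricter gate. Against Cd209a cells it went from 6 to 2 with the stricter gate and to 3 with the gate at ratio 2, an alternative chosen after seeing the data. Against neutrophils it went from 4 to 0 with size factors of the DESeq2 kind and with at least 10 cells per sum, to 2 with the gate at ratio 2 and to 7 with DESeq2, and at 1000 UMIs per cell no comparison with neutrophils could be made. Leaving out each library gave 0 to 2 against monocytes, 0 to 6 against Cd209a cells, 0 to 5 against neutrophils and 0 to 3 for macrophages against Cd209a cells, and 0 in every case for microglia against macrophages and for the split microglia. The counts were lowest without library 3 or library 5, and without library 2 they also fell, to 1 against monocytes, 4 against Cd209a cells, 3 against neutrophils and 2 for macrophages against Cd209a cells, as they did without library 4 against neutrophils (2). The cause of these changes was not tested, but libraries 3 and 5 hold most cells.

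Without the library as a replicate block, the counts of members called were 0, 2, 5, 5, 2 and 0 for microglia against macrophages, monocytes, Cd209a cells and neutrophils, for macrophages against Cd209a cells and for the split. DESeq2 gave no adjusted p for 3533 to 3836 of 5207 genes between classes. Counts of all called genes ranged from 0 to 74 for microglia against macrophages, 18 to 194 against monocytes, 0 to 345 against Cd209a cells, 48 to 575 against neutrophils, 0 to 247 for macrophages against Cd209a cells and 7 to 18 in the split, beside 25, 190, 288, 318, 142 and 9.

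Folds that changed sign belonged to results that were not called, all values being log2. Between microglia and macrophages, Mef2c was -0.10 without the block, Spi1 was -0.12 at 1000 UMIs, -0.063 with 10 cells per sum, -0.059 with the stricter gate and -0.41 without the block, and Runx1 and Zeb2 were 0.59 and 0.46 at 300 UMIs. Against monocytes Spi1 was 0.0050 at 300 UMIs and Zeb2 was -0.073 with DESeq2-type size factors. Against neutrophils Spi1 was 0.14 with DESeq2, 0.29 without a filter, 0.0052 at 300 UMIs and 0.13 without the block, and Cebpb was 0.13 without a filter. In the split, Irf8 was 0.30 and 0.39 and Cebpb 0.40 and 0.63 at 300 and 1000 UMIs, and Maf was -0.053 without mitochondrial and rRNA-like rows. Leaving out each library gave Spi1 -0.11 to 0.45 and Runx1 -0.64 to 0.085 against macrophages, Spi1 -0.62 to 0.91 and Zeb2 -0.43 to 1.30 against monocytes, Runx1 -0.091 to 1.26 against Cd209a cells, and Spi1 -0.54 to 0.54 and Cebpb -0.68 to 0.10 against neutrophils. It gave Sall1 -0.017 to 1.40 for macrophages against Cd209a cells, and in the split Mef2c -0.32 to 0.091, Irf8 -0.52 to 0.047, Maf -0.24 to 0.28, Runx1 -0.65 to 0.55 and Cebpb -1.10 to 0.15.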
